A study of Mus musculus with 21 samples.

Results

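The genes described here are 10 components of the machinery by which macrophages sense lipopolysaccharide (LPS) and related microbial products. They were chosen by symbol from the deposited count table, where all 10 were found among 34573 genes. They are the LPS receptor Tlr4 with its partners Cd14 and Ly96, the Tlr4 homologue Cd180 with its partner Ly86, the Toll-like receptors Tlr2, Tlr7 and Tlr13, and the adaptors Myd88 and Ticam2. Of these, 9 passed the filter on low counts, as did 6812 genes in all; Ly96 did not and is given by its counts. The study measured RNA by bulk sequencing in 21 libraries of bone-marrow-derived macrophages from C57bl/6 mice aged 12 weeks. All cells had first been cultured for 6 days in L929-conditioned medium, which supplies the macrophage growth factor M-CSF. Cells given dimethyl malonate (DMM) or succinate for 3 h were then stimulated with LPS for 4 or 48 h or left without LPS. Cells that received LPS alone for 4 or 48 h and untreated cells complete the design.

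The stimulated libraries number 2 for DMM then LPS 4 h, 2 for DMM then LPS 48 h, 1 for succinate then LPS 4 h, 1 for succinate then LPS 48 h, 2 for LPS 4 h and 2 for LPS 48 h. The unstimulated libraries number 4 for DMM, 4 for succinate and 3 for untreated control. Doses could not be read from the labels, and nothing in them ties replicates to separate animals or cultures. The p-values below therefore measure only the spread between these libraries.

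Tlr4 binds LPS at the cell surface through Ly96 (MD-2), after Cd14 has handed the lipid over from serum LPS-binding protein. From the plasma membrane it signals through Myd88, and after endocytosis through Ticam1 (TRIF) with Ticam2 (TRAM) as the bridging adaptor. Cd180 (RP105) resembles the ectodomain of Tlr4 but has no signalling TIR domain, and with Ly86 (MD-1) it restrains Tlr4 signalling in myeloid cells. Tlr2 recognises bacterial lipopeptides, while Tlr7 and Tlr13 sit in endosomes and recognise single-stranded RNA and bacterial ribosomal RNA. DMM is a membrane-permeable ester of malonate, a competitive inhibitor of succinate dehydrogenase, and succinate is that enzyme's substrate.

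Promoter sequence is shown for Tlr2, whose level differed with the pretreatment, and for Ly86, which differed with it in only some of the fits described below. It is also shown for Myd88 and Cd180, which changed with LPS. The sequences are RefSeq's, in build GRCm38.p6, read 5′ to 3′ on the gene's strand from 250 bases upstream of the annotated start and stopped before the first annotated exon base. RefSeq entries were found for 5 of the 10 genes. Capitals mark a match to a searched motif. The Tlr2 stretch is chr3:83841768-83841858, minus strand, 91 bases. The Myd88 stretch is chr9:119340042-119340268, minus strand, 227 bases. The Ly86 stretch is chr13:37345095-37345207, plus strand, 113 bases, and the Cd180 stretch is chr13:102693297-102693546, plus strand, 250 bases.
Tlr2: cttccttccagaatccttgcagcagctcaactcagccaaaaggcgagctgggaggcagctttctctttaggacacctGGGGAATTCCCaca
Myd88: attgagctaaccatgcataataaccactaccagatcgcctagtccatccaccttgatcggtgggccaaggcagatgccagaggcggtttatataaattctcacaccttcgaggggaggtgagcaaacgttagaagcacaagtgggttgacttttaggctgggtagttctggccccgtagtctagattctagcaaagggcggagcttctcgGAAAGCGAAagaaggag
Ly86: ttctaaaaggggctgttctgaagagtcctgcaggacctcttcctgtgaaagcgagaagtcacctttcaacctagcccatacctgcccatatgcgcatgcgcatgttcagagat
Cd180: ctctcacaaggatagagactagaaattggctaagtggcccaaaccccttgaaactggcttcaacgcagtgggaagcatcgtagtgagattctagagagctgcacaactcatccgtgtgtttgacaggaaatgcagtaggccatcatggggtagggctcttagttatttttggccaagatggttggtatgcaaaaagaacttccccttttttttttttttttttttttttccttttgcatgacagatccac
The motifs searched, on both strands of the 250 bases upstream of the start, were the NF-kB consensus, the interferon-response-like GAAANNGAA, the PU.1 core GAGGAAG and the AP-1 motif TGANTCA. Tlr2 held overlapping NF-kB consensus matches at positions -173 to -163, and 3.90% of 32851 mouse promoters of the same length held at least 1. Myd88 held GAAAGCGAA at positions -40 to -32, and 7.13% of promoters held that motif. Tlr13, whose stretch is not shown, held the PU.1 core at positions -83 to -77, and 10.6% of promoters held that motif. The AP-1 motif was found in 6.75% of promoters. No searched motif lay in the Ly86 or Cd180 stretch, which says only that these letters are not in these windows.

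Total counts ran from 662186 to 1546867 per library. The library labelled LPS 48 h replicate 1 stood apart: its level of Saa3, a strongly LPS-induced acute-phase gene, was 33.4 CPM (counts per unit of TMM-scaled library size), against 52967 to 124675 CPM in the other 9 LPS libraries and 23.9 to 109 CPM in the 11 unstimulated ones. It was kept out of the fits, which leaves 1 library for LPS 48 h; its p-values take the spread from the other groups. The summed level of the 7 macrophage markers in the table, led by Lyz2, was 77409 to 163738 CPM in LPS libraries and 52371 to 89990.3 CPM in unstimulated ones. These markers did not all move alike. Cd68 was 260 to 1183 CPM in the 9 LPS libraries and 1165 to 2027 CPM in the 11 unstimulated ones. Emr1 was 4602 to 24023 CPM and 942 to 3334 CPM. Csf1r was 1347 to 3271 CPM in DMM then LPS against 3950 to 5432 CPM with DMM alone. With LPS alone Csf1r was 6001 to 7847 CPM, against 5404 to 5669 CPM in control. The B cell marker Cd79a was at 0 in every library. The B cell sum, nearly all of it Ighm, was 0 to 2.13 CPM in the 9 LPS libraries and 55.6 to 164 CPM in the unstimulated ones. The sum of 6 neutrophil markers was 7.72 to 563 CPM with LPS and 0 to 1.58 CPM without, nearly all of it S100a8 in the LPS libraries. Ly6g and Ltf were at 0 in every library, and S100a9, Mpo and Elane had at most 1 count in any.

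The unstimulated libraries carry only a column number, and the numbers divided them. In columns 2 and 4, set against columns 1 and 3, Ly86 was higher by 1.24 ± 0.17 on the log2 scale (± SE throughout) and Tlr2 by 1.33 ± 0.17. The columns were grouped this way after Tlr2 and Ly86 had been seen to differ between them, so their p-values are left out. The other 7 tested members did not pass the threshold, and 4.29% of all genes tested did. Each comparison was therefore fitted in both of 2 ways. In the first, the unstimulated columns of a treatment form 1 group. In the second, added after these values were known, they are separated by number, and 4 h LPS groups are set against columns 1 and 3 and 48 h LPS groups against columns 2 and 4. That this matches the collection times is an inference from the column names, not a label. For Tlr2 and Ly86, calls that appear only with separated columns are not independent evidence. Control has no column 2, so with separated columns the 48 h effect of LPS alone sets 1 library against 1. Tests of whether LPS acted differently after a pretreatment use the same pair at 48 h. Comparisons among LPS groups hold no unstimulated library, so there the second fit changes the fitted spread and hardly the estimate. Adjusted p-values are from edgeR's quasi-likelihood test with Benjamini-Hochberg adjustment over all 6812 genes, a call is an adjusted p under 0.05, and values are from the first fit unless the separated columns are named.

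Levels of different genes can be compared only per length. Per kilobase of exon, Cd14 was by far the most abundant member, at 2827 ± 68.5 CPM per kilobase after 4 h of LPS (SD, n = 2), 2577 after 48 h (n = 1) and 755 ± 214 in control cells (SD, n = 3). In control cells there followed Cd180 at 30.3 ± 8.57, Tlr7 at 22.5 ± 4.55, Tlr13 at 18.4 ± 3.07, Ly86 at 17.7 ± 10.2, Tlr4 at 16.3 ± 3.58, Myd88 at 15.7 ± 2.88 and Tlr2 at 13.0 ± 9.37 CPM per kilobase. Ly96 had 2.47 ± 1.30 and Ticam2 1.07 ± 0.652 CPM per kilobase in the same cells. Among the neighbours in that order, only Cd14 and Cd180 stood further apart than the sum of their SDs. After 4 h of LPS, Myd88 was next after Cd14 at 39.3 ± 1.71 CPM per kilobase, followed by Tlr2 at 21.5 ± 0.383, while Tlr4 was at 7.71 ± 1.32, ahead of only Ly96 and Ticam2. There, Cd14 and Myd88, Myd88 and Tlr2, and Tlr4 and Ly96 stood further apart than the sum of their SDs.

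**Figure D1:**
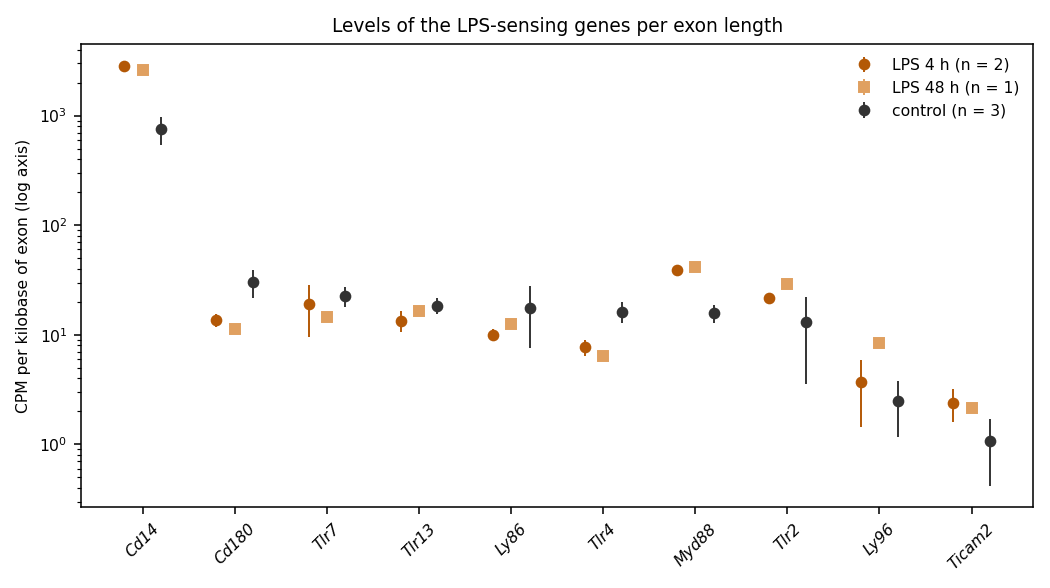
Mean level of each LPS-sensing gene in LPS 4 h, LPS 48 h and control macrophages, as CPM per kilobase of exon on a log axis (points are means, bars the SD over the libraries named in the legend). Cd14 lies far above the other 9 genes in all 3 groups, and Myd88 and Tlr2 are next after it in the LPS 4 h cells.

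LPS raised some members and lowered others in the same cells. After 4 h of LPS against control, 4 of 9 tested members were called, 2 up and 2 down, where 27.9% of all genes were called; with separated columns the count was 5 and the background 27.4%. After 48 h against control, 3 were called against a background of 20.8%, and 3 against 17.9% with separated columns. With the library kept apart included, edgeR called 0 members at 48 h, where 502 of 6894 genes were called. There Tlr4 was at -0.89 (adjusted p = 0.078), Cd14 at 1.18 (adjusted p = 0.13) and Myd88 at 0.84 (adjusted p = 0.20). In DMM-treated cells LPS for 4 h called 6 members (34.1% of all genes) and LPS for 48 h called 4 (30.8%), each against DMM alone. With separated columns these counts were 7 (32.2%) and 5 (27.6%). In succinate-treated cells they were 5 at 4 h (18.4%) and 4 at 48 h (19.9%) against succinate alone, and 6 (20.6%) and 5 (19.5%) with separated columns. The 4 h and 48 h comparisons of each pretreatment share their unstimulated libraries in the first fit. The median log2 change of the 9 members was -0.24 after 4 h of LPS alone, beside -0.07 over all genes, with members changed in both directions. Scaling matters to direction here: of all genes called after 4 h of LPS alone, 1048 of 1899 were higher with TMM scaling and 578 of 2304 with total counts. The same counts were 849 of 1414 and 523 of 1525 for LPS 48 h, 765 of 1256 and 455 of 1605 for succinate then LPS 4 h, and 823 of 1357 and 456 of 1531 for succinate then LPS 48 h. They were 1073 of 2322 and 739 of 2081 for DMM then LPS 4 h, and 1051 of 2098 and 657 of 1998 for DMM then LPS 48 h.

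**Figure D2:**
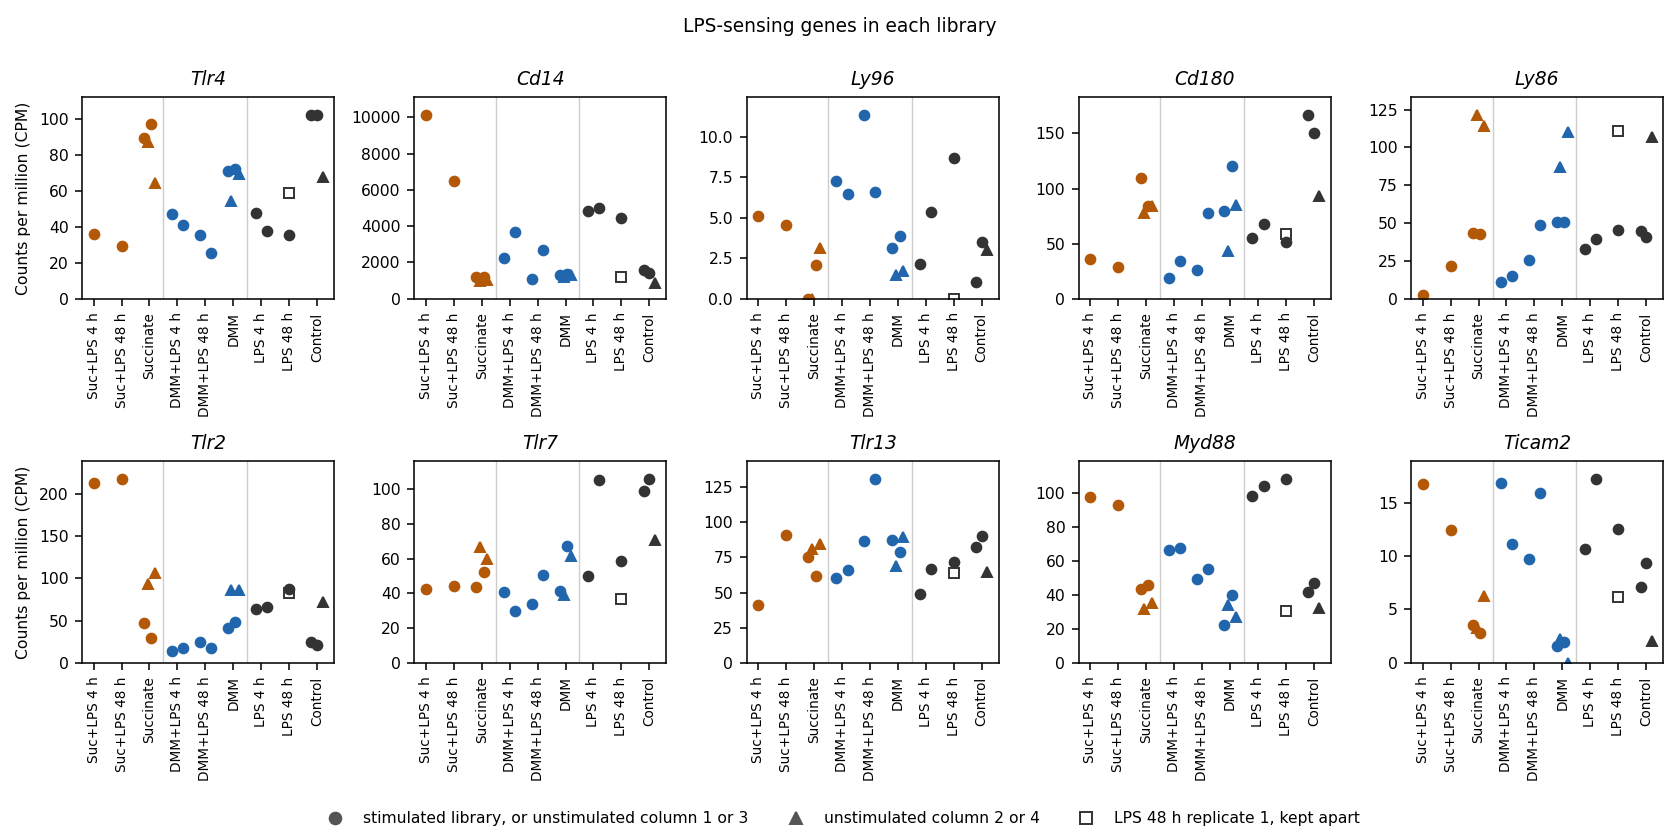
CPM of the 10 genes in every library, with the LPS-stimulated groups of each pretreatment to the left of the matching unstimulated group; each point is 1 library, triangles are unstimulated columns 2 and 4, and the open square is LPS 48 h replicate 1. Myd88 is higher and Tlr4 lower in every LPS library kept in the fits, Cd14 is higher in all of them except DMM then LPS 48 h replicate 1, and among the LPS libraries Tlr2 is highest in succinate then LPS and lowest in DMM then LPS.

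Tlr4 itself was lower in stimulated cells. It had 48.0 and 37.6 CPM in LPS 4 h cells, 35.7 CPM in the LPS 48 h library and 102, 102 and 67.6 CPM in control cells. After DMM it had 47.2 and 40.9 CPM with LPS for 4 h, 35.6 and 25.4 CPM with LPS for 48 h and 71.3, 54.4, 72.2 and 69.6 CPM without. After succinate it had 36.0 CPM with LPS for 4 h, 29.5 CPM with LPS for 48 h and 89.3, 87.3, 97.2 and 64.2 CPM without. Every one of the 9 LPS libraries lay below every one of the 11 unstimulated libraries. In bulk RNA, fewer cells carrying a transcript and less of it per cell cannot be told apart. Tlr4 fell by 1.08 ± 0.28 on the log2 scale after 4 h of LPS (adjusted p = 0.0034) and by 1.34 ± 0.37 after 48 h (adjusted p = 0.0077), against control. It fell after succinate too, by 1.23 ± 0.37 at 4 h (adjusted p = 0.019) and by 1.51 ± 0.38 at 48 h (adjusted p = 0.0037). The 4 h call after succinate was lost with all 21 libraries (adjusted p = 0.061) and with no filter on low counts (adjusted p = 0.08). After DMM it fell at 48 h by 1.12 ± 0.27 (adjusted p = 0.002), while the 4 h change of -0.59 ± 0.26 missed the threshold (adjusted p = 0.075). With separated columns the 4 h change after DMM was -0.69 ± 0.27 (adjusted p = 0.044) and the 48 h change with LPS alone was -0.92 ± 0.39 (adjusted p = 0.11). Without LPS 4 h replicate B the adjusted p against control was 0.08, and without DMM then LPS 48 h replicate 2 it was 0.06 against DMM.

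Cd14, the lipid-loading co-receptor, moved the other way. LPS 4 h cells had 4812 and 4979 CPM, the LPS 48 h library 4463 CPM and control cells 1598, 1435 and 891 CPM. Cells given succinate then LPS had 10101 CPM at 4 h and 6489 CPM at 48 h, against 1225, 985, 1206 and 1059 CPM with succinate alone. Cells given DMM then LPS had 2239.6 and 3704 CPM at 4 h and 1068 and 2659 CPM at 48 h, against 1334, 1215, 1369.8 and 1327 CPM with DMM alone. The stimulated groups lay wholly above their unstimulated groups except at 48 h after DMM, where replicate 1 lay below all 4 DMM libraries. Cd14 rose by 1.90 ± 0.36, adjusted p = 0.00012, at 4 h and by 1.77 ± 0.43, adjusted p = 0.0025, at 48 h of LPS alone on the log2 scale. The rises over succinate alone were 3.17 ± 0.39, adjusted p = 1.5e-07, at 4 h and 2.54 ± 0.39, adjusted p = 9.9e-06, at 48 h. Over DMM alone, Cd14 rose by 1.18 ± 0.34, adjusted p = 0.0064, at 4 h, and its 48 h change of 0.51 ± 0.34, adjusted p = 0.27, did not pass. The DMM 4 h call rested on replicate B, without which the adjusted p was 0.18, and without DMM then LPS 48 h replicate 1 the 48 h change was 1.06 with adjusted p = 0.011.

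Ly96, which forms the LPS pocket of the receptor, was close to the detection limit. Its counts were 2 to 14 in the 9 LPS libraries and 0 to 4 in the 11 unstimulated libraries. In CPM this was 2.13 and 5.38 in LPS 4 h cells, 8.69 in the LPS 48 h library and 1.02, 3.52 and 3.03 in control cells. After DMM, Ly96 had 7.31 and 6.50 CPM with LPS for 4 h and 11.3 and 6.58 CPM with LPS for 48 h, against 3.17, 1.49, 3.90 and 1.74 CPM without. Succinate then LPS gave 5.15 CPM at 4 h and 4.55 CPM at 48 h, each of them 4 counts. Succinate alone gave 0, 0, 2.08 and 3.13 CPM. The LPS libraries lay above all unstimulated libraries of their pretreatment except in LPS 4 h cells, which overlapped control cells. In an edgeR fit of all 21320 genes with any count, Ly96 was called only at 48 h after DMM against DMM alone, at 1.84 ± 0.63 on the log2 scale with adjusted p = 0.039, where 9.35% of those genes were called.

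Cd180 and Ly86 form the receptor complex that resembles Tlr4 with Ly96. Cd180 had 55.5 and 67.8 CPM in LPS 4 h cells, 51.2 CPM in the LPS 48 h library and 166, 150.1 and 92.8 CPM in control cells. After DMM it had 18.5 and 34.4 CPM with LPS for 4 h, 25.9 and 78.0 CPM with LPS for 48 h and 79.2, 43.2, 120.0 and 85.2 CPM without. After succinate it had 36.0 CPM with LPS for 4 h, 28.4 CPM with LPS for 48 h and 109, 77.5, 84.0 and 83.8 CPM without. Stimulated and unstimulated libraries overlapped after DMM at 48 h and nowhere else. Cd180 fell by 1.14 ± 0.41 on the log2 scale after 4 h of LPS alone (adjusted p = 0.038), by 1.66 ± 0.42 at 4 h after DMM (adjusted p = 0.0035) and by 1.63 ± 0.58 at 48 h after succinate (adjusted p = 0.0497). The call after succinate was lost with separated columns (adjusted p = 0.08), with all 21 libraries (0.07) and without any 1 of the 4 succinate libraries (0.059 to 0.087). The call at 4 h after DMM was lost without DMM then LPS 4 h replicate A (adjusted p = 0.11). The other 3 changes ran from -1.41 ± 0.54 to -0.66 ± 0.39 and did not pass. With total-count scaling all 3 were called, at -1.89 for LPS 48 h (adjusted p = 0.0012), -1.91 for succinate then LPS 4 h (0.0019) and -1.02 for DMM then LPS 48 h (0.011). The fall with LPS alone at 4 h lost its call without control replicate 1 (adjusted p = 0.13), control replicate 3 (0.094), LPS 4 h replicate A (0.22) or replicate B (0.11). B cells also express Cd180 and Ly86 as a background fact, and the B cell marker sum given above was lower in the LPS libraries too; its part in these results was not tested.

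Ly86 separated the unstimulated libraries by column number more than by treatment. It had 50.7 and 50.7 CPM in DMM columns 1 and 3 and 87.2 and 110.4 CPM in DMM columns 2 and 4. Succinate columns 1 and 3 had 43.5 and 43.1 CPM and succinate columns 2 and 4 had 121 and 114 CPM. Control columns 1 and 3 had 44.9 and 41.1 CPM and control column 4 had 107 CPM. All 5 even columns lay above all 6 odd ones. With LPS, Ly86 had 33.1 and 39.8 CPM after LPS alone for 4 h, 45.4 CPM after LPS alone for 48 h, 11.2 and 14.9 CPM after DMM then LPS 4 h and 25.9 and 48.8 CPM after DMM then LPS 48 h. Succinate then LPS left 2.57 CPM at 4 h, which is 2 counts, and 21.6 CPM at 48 h. Every LPS library lay below all unstimulated libraries of its own pretreatment except the LPS 48 h library, which lay within the control range.

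The falls of Ly86 depended on which unstimulated columns served as the comparison. With all columns together, it fell only after DMM then LPS 4 h, by 2.56 ± 0.62 on the log2 scale (adjusted p = 0.005), and after succinate then LPS 4 h (adjusted p = 0.012). The 2 counts of the succinate then LPS 4 h library were 16.8-fold lower than succinate columns 1 and 3, with a 95% counting interval of 4.53 to 141 that covers counting error only. With total-count scaling it was also called after LPS alone for 4 h, at -1.43 (adjusted p = 0.04), and at 48 h after DMM and after succinate (adjusted p = 0.041 and 0.021). With separated columns Ly86 also fell at 48 h, by 1.23 ± 0.38 after LPS alone (adjusted p = 0.019), by 1.41 ± 0.27 after DMM (adjusted p = 8.9e-05) and by 2.44 ± 0.39 after succinate (adjusted p = 8.6e-06). After LPS alone for 4 h the change was -0.24 ± 0.30 with separated columns (adjusted p = 0.62). The call at 4 h after DMM with columns together was lost without DMM then LPS 4 h replicate A. With separated columns it held without each library in turn. The columns were separated after Ly86 had been seen to differ between them, so this is not independent evidence.

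Tlr2, the lipopeptide receptor, differed between the pretreatments. It had 212 CPM in the succinate then LPS 4 h library and 217 CPM in the succinate then LPS 48 h library. DMM then LPS cells had 14.0 and 17.6 CPM at 4 h and 24.3 and 17.8 CPM at 48 h. LPS alone gave 64.0 and 65.6 CPM at 4 h and 87.8 CPM at 48 h. These 3 pretreatments did not overlap at either time. Without LPS, Tlr2 had 41.2 and 47.8 CPM in DMM columns 1 and 3 and 85.7 and 86.1 CPM in columns 2 and 4. Succinate alone gave 47.0 and 29.9 CPM in columns 1 and 3 and 93.8 and 106 CPM in columns 2 and 4. Control cells had 24.5 and 21.1 CPM in columns 1 and 3 and 71.6 CPM in column 4. Tlr2 in DMM then LPS cells thus lay below every DMM library, and in succinate then LPS cells above every succinate library.

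Over DMM alone, Tlr2 fell with LPS by 2.08 ± 0.60 on the log2 scale at 4 h (adjusted p = 0.014) and by 1.64 ± 0.58 at 48 h (adjusted p = 0.044). With separated columns the falls were 1.52 ± 0.32 (adjusted p = 0.00024) and 2.01 ± 0.29 (adjusted p = 6.9e-07). Over succinate alone the changes of 1.62 ± 0.58 at 4 h and 1.65 ± 0.57 at 48 h missed the threshold with columns together (adjusted p = 0.065 and 0.055). With separated columns Tlr2 rose by 2.50 ± 0.30 at 4 h (adjusted p = 4e-08) and by 1.12 ± 0.29 at 48 h (adjusted p = 0.0039). Over control, LPS alone raised Tlr2 by 1.50 ± 0.30 at 4 h with separated columns (adjusted p = 0.00017), against 0.72 ± 0.56 with columns together (adjusted p = 0.39). Without control column 4 the 4 h change with columns together was 1.54 (adjusted p = 0.027). At 48 h of LPS alone it was not called in either fit, with changes of 1.15 ± 0.66 together and 0.29 ± 0.36 separated, but it was called without control column 4 at 2.01 (adjusted p = 0.013). With columns together, the falls after DMM lost their call without either DMM then LPS library of their time and, at 48 h, also without DMM column 2 or 4 (adjusted p = 0.058 to 0.22). With separated columns they held without each library in turn. The columns were separated after Tlr2 had been seen to differ between them, so this is not independent evidence.

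**Figure D3:**
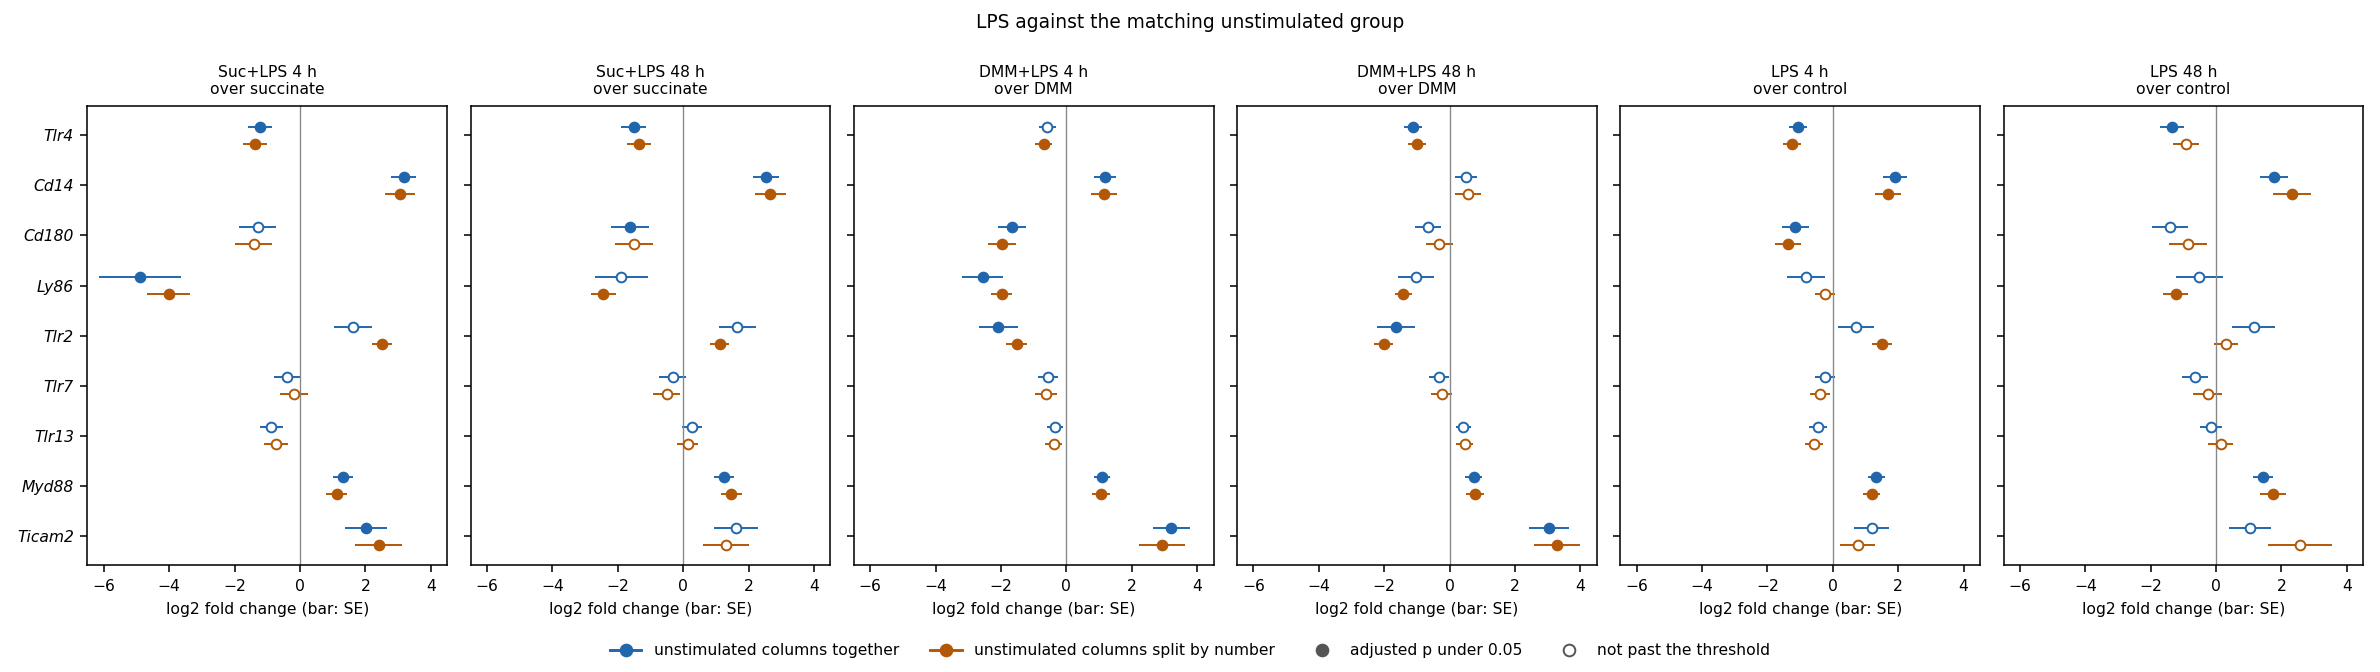
Log2 fold change of the 9 tested members in LPS-stimulated cells over the unstimulated cells of the same pretreatment (points are estimates with unstimulated columns together in blue and separated in orange, bars the SE, filled points have an adjusted p under 0.05). With columns together Cd14, Myd88 and Ticam2 lie right of 0 and Tlr4, Cd180 and Ly86 left of it, while Tlr2 lies left of 0 after DMM and right of it elsewhere; the Ly86 point after succinate then LPS 4 h rests on 2 counts.

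Neither endosomal receptor, Tlr7 or Tlr13, was called in any LPS comparison with TMM scaling and all 20 libraries. With total-count scaling Tlr7 was called after 4 h of LPS alone at -0.83 (adjusted p = 0.042). Tlr13 was called there at -1.03 (adjusted p = 0.0039) and after succinate then LPS 4 h at -1.47 (adjusted p = 0.004). Tlr7 had 50.1 and 105 CPM in LPS 4 h cells, 58.9 CPM in the LPS 48 h library and 99.0, 106 and 70.6 CPM in control cells. After DMM it had 41.0 and 29.7 CPM with LPS for 4 h, 34.0 and 50.7 CPM with LPS for 48 h and 41.2, 38.8, 67.3 and 61.7 CPM without. After succinate it had 42.5 CPM at 4 h and 44.3 CPM at 48 h of LPS, against 43.5, 66.6, 52.1 and 59.5 CPM without. With LPS alone, 1 of the 2 libraries at 4 h lay within the control range and the other lay below it, as did the 48 h library. After DMM the ranges overlapped at 48 h, and at 4 h only replicate A lay within the DMM range. After succinate the 4 h library lay just below the unstimulated ones. No LPS comparison of Tlr7 was called in either fit, with log2 changes of -0.64 ± 0.40 to -0.24 ± 0.30 with columns together. Tlr13 had 49.1 and 66.7 CPM in LPS 4 h cells, 71.4 CPM in the LPS 48 h library and 82.7, 90.3 and 64.6 CPM in control cells. After DMM its levels were 60.7 and 65.9 CPM with LPS for 4 h, 86.7 and 131 CPM with LPS for 48 h and 87.1, 68.6, 79.0 and 89.6 CPM without. Succinate then LPS gave 41.2 CPM at 4 h and 90.9 CPM at 48 h, against 75.2, 80.7, 61.8 and 84.6 CPM with succinate alone. The lowest library was succinate then LPS 4 h and the highest DMM then LPS 48 h replicate 2. No LPS comparison of Tlr13 was called in either fit, with log2 changes of -0.87 ± 0.36 to 0.42 ± 0.24. With separated columns, Tlr7 after 4 h of LPS alone was called without LPS 4 h replicate B (-1.03, adjusted p = 0.045), and Tlr13 at 48 h after DMM without DMM then LPS 48 h replicate 1 (0.76, adjusted p = 0.029).

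Myd88, the adaptor of most Toll-like receptors, was higher in every LPS library than in every unstimulated one. It had 98.1 and 104 CPM in LPS 4 h cells, 108 CPM in the LPS 48 h library and 41.8, 46.9 and 32.3 CPM in control cells. After DMM it had 66.3 and 67.8 CPM with LPS for 4 h, 49.4 and 55.4 CPM with LPS for 48 h and 22.2, 34.3, 40.0 and 27.0 CPM without. After succinate it had 97.8 CPM with LPS for 4 h, 93.2 CPM with LPS for 48 h and 43.5, 31.6, 45.8 and 35.2 CPM without. All 6 LPS comparisons were called in both fits, with rises on the log2 scale from 0.74 ± 0.25 at 48 h after DMM (adjusted p = 0.026) to 1.42 ± 0.31 at 48 h of LPS alone (adjusted p = 0.0008). When libraries were scaled by total counts alone, the rise at 4 h of LPS alone was 0.75 with adjusted p = 0.064, and only the DMM 4 h comparison passed. The call at 48 h after DMM was lost with DESeq2 (adjusted p = 0.07), all 21 libraries (0.11) and no filter (0.10). It was also lost without DMM column 1 (adjusted p = 0.069), DMM column 4 (0.072) or DMM then LPS 48 h replicate 1 (0.051) or 2 (0.11). Acaa1a lies on the other strand across 290 exon bases of Myd88, and the strand setting of the counting is unknown.

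Ticam2, which carries Tlr4 signalling from the endosome, was scarce. It had 10.7 and 17.2 CPM in LPS 4 h cells, 12.5 CPM in the LPS 48 h library and 7.14, 9.38 and 2.02 CPM in control cells. After DMM it had 16.9 and 11.1 CPM with LPS for 4 h, 9.72 and 16.0 CPM with LPS for 48 h and 1.58, 2.24, 1.95 and 0 CPM without. After succinate it had 16.7 CPM with LPS for 4 h, 12.5 CPM with LPS for 48 h and 3.53, 3.27, 2.78 and 6.26 CPM without. Every LPS library lay above every unstimulated one. Over DMM alone Ticam2 rose at 4 h, with 42 counts in the DMM then LPS libraries and 6 in the 4 DMM libraries, a ratio of 10.2 after scaling (95% counting interval 4.30 to 29.3, adjusted p = 4.5e-05). At 48 h the counts were 29 and 6, a ratio of 8.72 (3.56 to 25.7, adjusted p = 0.00023). It rose over succinate alone at 4 h by 2.03 ± 0.65, adjusted p = 0.025, a call lost by DESeq2 (adjusted p = 0.063) and with total-count scaling (adjusted p = 0.13). The other 3 comparisons were not called. Ticam2 shares 838 exon bases with Tmed7 on the same strand, so its counts are uncertain.

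Whether DMM or succinate changed these genes before LPS was asked by setting each against control. No member was called for DMM against control, where 0.558% of all genes were, and none for succinate against control, where 0% were, by edgeR or DESeq2. Unadjusted p-values were under 0.05 for 3 members with DMM and 1 with succinate. Over all genes, succinate against control had 363 at an unadjusted p under 0.05, and DESeq2 called 2. The largest log2 differences among members were -1.98 ± 0.66 for Ticam2 and -0.80 ± 0.26 for Tlr7 with DMM (adjusted p = 0.19 and 0.16), and 0.80 ± 0.47 for Tlr2 and -0.72 ± 0.25 for Tlr7 with succinate (adjusted p = 0.95 and 0.79). Without control column 4, Ticam2 was lower with DMM by 2.40 (adjusted p = 0.048).

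Among LPS-stimulated cells, DMM lowered several members. Averaged over 4 and 48 h, a comparison added after the values were known, 4 of 9 tested members were called in DMM then LPS against LPS, all lower, where 17.3% of all genes were called. They were Tlr2 at -2.04 ± 0.49, adjusted p = 0.0098, Cd14 at -0.99 ± 0.31, adjusted p = 0.026, Myd88 at -0.82 ± 0.21, adjusted p = 0.0072 and Tlr7 at -0.80 ± 0.27, adjusted p = 0.039. With the library kept apart included in LPS 48 h, 1 of the 4, Tlr2, was called. With separated columns Ly86 joined them at -0.90 ± 0.24, adjusted p = 0.0066, making 5 against a background of 21.7%; the Ly86 call was lost without DMM then LPS 4 h replicate A (adjusted p = 0.056). Tlr4, Ticam2 and Tlr13 were not called in either fit, at -0.09 ± 0.25, 0.03 ± 0.39 and 0.36 ± 0.23. The calls of Cd14 and Tlr7 were lost without DMM then LPS 4 h replicate A (adjusted p = 0.13 and 0.053), DMM then LPS 48 h replicate 1 (0.055 and 0.14) or LPS 4 h replicate B (0.065 and 0.28), that of Cd14 also without LPS 4 h replicate A (0.059) and that of Tlr7 without DMM then LPS 4 h replicate B (0.12). Of all genes called, 370 of 1179 were higher with TMM scaling and 667 of 1147 with total counts. With total-count scaling Myd88 and Tlr7 lost their calls (adjusted p = 0.21 and 0.26), and Tlr13 was called as higher in DMM then LPS, at 0.69 (adjusted p = 0.04). DESeq2 gave Tlr7 an adjusted p of 0.10.

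At the single times fewer members were called. At 4 h, 1 member was called in DMM then LPS against LPS, Tlr7 at -1.12 ± 0.34, adjusted p = 0.026, with a background of 14% (241 of 956 genes called were higher, and 477 of 877 with total counts); without LPS 4 h replicate B its difference was -0.48. The Tlr7 call was also lost without either DMM then LPS 4 h library (adjusted p = 0.088 and 0.18) and with DESeq2 (0.061), which called Tlr2 instead (0.01). With separated columns 3 were called against 18.1%, with Tlr2 lower by 2.05 ± 0.30 (adjusted p = 5.1e-06) and Ly86 lower by 1.51 ± 0.34 (adjusted p = 0.0013). The Ly86 call was lost without DMM then LPS 4 h replicate A (adjusted p = 0.066). At 48 h, 0 members were called by edgeR against 0.807% (3 at an unadjusted p under 0.05, 0 by DESeq2), and 1 against 2.51% with separated columns, Tlr2 at -2.04 ± 0.33, adjusted p = 0.0002.

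Between succinate then LPS and LPS alone, Tlr2 and Ly86 were the only members called, and only with separated columns or another tool or filter. Averaged over both times, 0 members were called by edgeR in succinate then LPS against LPS, where 2.1% of genes were, and 3 had an unadjusted p under 0.05. With separated columns 2 were called against 3.41%, with Tlr2 higher by 1.51 ± 0.23, adjusted p = 1.8e-05, and Ly86 lower (adjusted p = 0.00013). DESeq2 with columns together called 1 member, Ly86, and the fit with no filter on low counts called 2 (0.929% of 21320 genes). At 4 h the edgeR counts of members called were 0 with columns together (1.03% of genes, 3 members at an unadjusted p under 0.05, 0 by DESeq2) and 2 with separated columns (1.92%), Tlr2 at 1.71 ± 0.30, adjusted p = 0.0003 and Ly86. In the succinate then LPS 4 h library, Ly86 was 14.1-fold lower than in LPS 4 h cells, with a 95% counting interval of 3.77 to 119. At 48 h they were 0 (0.558%, 0 unadjusted, 0 by DESeq2) and 1 (1.45%), Tlr2 at 1.30 ± 0.35, adjusted p = 0.044. The succinate then LPS groups have 1 library each, which is assumed to vary like the other groups. Cd14 was at 0.79 ± 0.37 averaged over both times and was not called (adjusted p = 0.44).

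The pretreated groups were also set against each other. In succinate then LPS against DMM then LPS, averaged over both times, 3 members were called, all higher, where 17.3% of genes were. Of all genes called, 823 of 1177 were higher with TMM scaling and 470 of 1144 with total counts. Tlr2 was higher by 3.55 ± 0.50, adjusted p = 0.00017, Cd14 by 1.78 ± 0.33, adjusted p = 0.00028, and Myd88 by 0.69 ± 0.24, adjusted p = 0.042. With separated columns the background was 20.1% and 4 were called, with Ly86 also called, at -1.52 ± 0.44, adjusted p = 0.011, where the succinate then LPS 4 h library holds 2 counts. Tlr2 kept its call without each DMM then LPS library in turn, with differences from 3.45 to 3.67, and so did Cd14. The succinate then LPS libraries, each alone in its group, were not left out. Myd88 lost its call without DMM then LPS 4 h replicate A or B or 48 h replicate 1, at 0.68, 0.70 and 0.64. With total-count scaling the Myd88 difference was 0.29 (adjusted p = 0.51), and Tlr13 was called as lower, at -0.81 (adjusted p = 0.033). DESeq2 gave Myd88 an adjusted p of 0.09. Beside these groups, S100a8 had 559.9 and 80.7 CPM in succinate then LPS at 4 and 48 h, and 199.5 and 320.3 CPM at 4 h and 12.1 and 12.2 CPM at 48 h in DMM then LPS. It is on the list of neutrophil markers, of which the other 5 were at 0 or 1 count. Dcn, 1 of 4 fibroblast markers, was at 0 in succinate then LPS and had 36.0 and 29.7 CPM at 4 h and 12.1 and 8.45 CPM at 48 h in DMM then LPS. The other 3 fibroblast markers, Col1a1, Col1a2 and Col3a1, had 0 to 3 counts in succinate then LPS and 0 to 6 in DMM then LPS. The part of S100a8 and Dcn in the result was not tested.

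**Figure D4:**
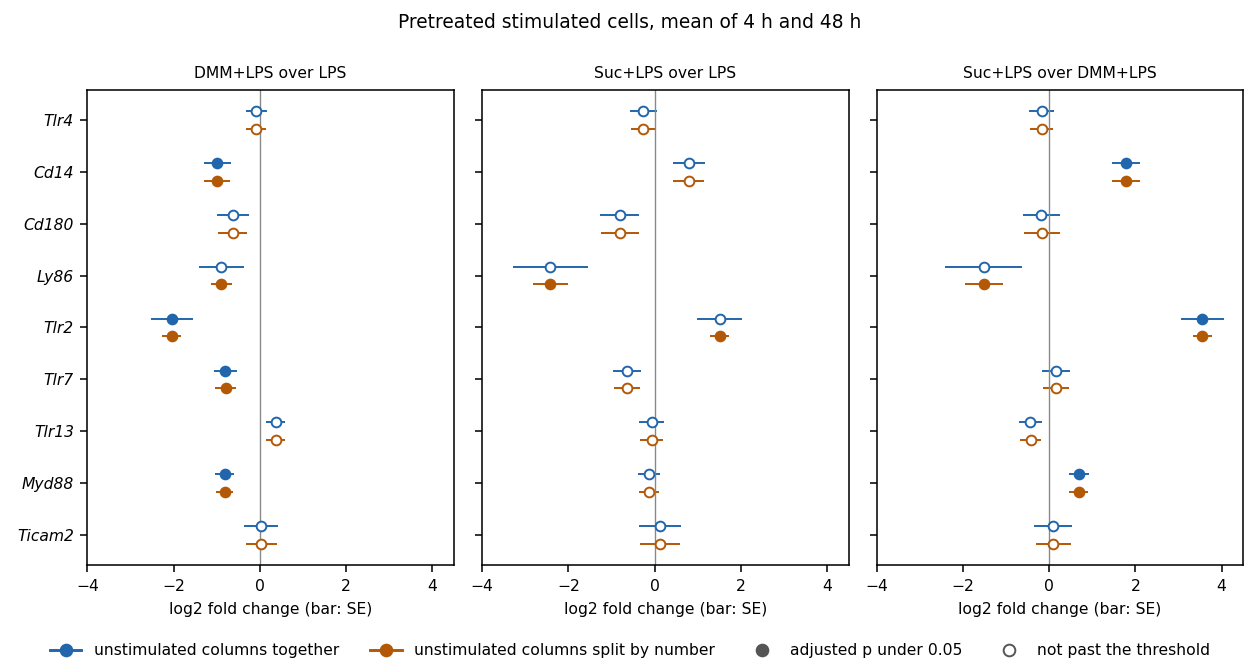
Log2 difference of the 9 tested members between pretreatments among LPS-stimulated cells, averaged over 4 h and 48 h (points are estimates, bars the SE, filled points have an adjusted p under 0.05). Tlr2 lies at -2.04 for DMM then LPS over LPS and at 3.55 for succinate then LPS over DMM then LPS, and Tlr4 and Ticam2 lie near 0 in all 3 panels.

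Whether LPS acted differently after a pretreatment was tested by the interaction. With separated columns, chosen after Tlr2 and Ly86 had been seen to differ between them, the DMM by LPS difference of Tlr2 was -3.02 ± 0.44 at 4 h (adjusted p = 3.1e-05). At 48 h it was -2.31 ± 0.46 and was called, where the LPS alone arm sets 1 library against 1. Ly86 differed too at 4 h, by -1.74 ± 0.45 (adjusted p = 0.012), a call lost without DMM then LPS 4 h replicate A (adjusted p = 0.12) or LPS 4 h replicate B (adjusted p = 0.075). These make 2 members at 4 h and 1 at 48 h, beside 6.56% and 0.323% of all genes. With columns together edgeR called 0 members at 4 h against 5.43% (2 at an unadjusted p under 0.05, 1 by DESeq2), Tlr2 being at -2.80 ± 0.81, adjusted p = 0.061. At 48 h Tlr2 was at -2.80 with columns together and was not called. For succinate at 4 h 1 member was called with separated columns, Ly86 (adjusted p = 0.008; 0.426% of genes), and at 48 h edgeR called 0 (0.161%), with 1 at an unadjusted p under 0.05.

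The 48 h libraries were set against the 4 h libraries. Averaged over the 3 pretreatments, 0 were called by edgeR at 48 h against 4 h (1.23% of genes), 2 had an unadjusted p under 0.05 and DESeq2 called 0. With separated columns 2 were (2.57%), Ly86 higher at 48 h by 1.62 ± 0.31, adjusted p = 0.00084, and Tlr13 higher by 0.74 ± 0.20, adjusted p = 0.028. The Tlr13 call was lost without DMM then LPS 4 h replicate A (adjusted p = 0.073) or LPS 4 h replicate A (adjusted p = 0.10). Within DMM-treated cells edgeR and DESeq2 called 0 members with columns together (1.17%; 3 at an unadjusted p under 0.05), and Cd14 at 48 h was -0.67 ± 0.40 relative to 4 h, with its 48 h libraries on either side of the lower 4 h library.

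Genes whose level tracked a member most closely over the 20 libraries were found by Pearson's r of log2(CPM + 1), as a description; the libraries share groups, so the values carry no test. For Tlr4 they were Snx8 (r = 0.964), the chemokine receptor Cxcr4 (r = 0.951) and Rasgrp3 (r = 0.948). For Cd14 they were the glycolytic enzyme gene Pkm (r = 0.959), Trem3 (r = 0.952) and P4hb, a protein disulfide isomerase (r = 0.946). For Cd180 they were Blvra (r = 0.940), Sdcbp (r = 0.912) and Sgpl1 (r = 0.910). For Tlr2 they were Twf2 (r = 0.898), Sdf2l1 (r = 0.858) and Ugt1a7c (r = 0.848). Tlr13 had weaker matches in S1pr2 (r = 0.823), Tcf12 (r = 0.798) and Spast (r = 0.719).

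The rest of the pathway was counted from 7 lists, of which 31 of 55 tested genes were called after 4 h of LPS alone, where 27.9% of all genes were. Of 8 other Toll-like receptors only 4 passed the filter, and after 4 h of LPS alone Tlr1, the lipopeptide partner of Tlr2, rose by 2.59 ± 0.52 on the log2 scale while Tlr6, Tlr8 and Tlr9 were not called. Of 7 receptor chaperones and trafficking genes 3 rose, namely Rab11a by 1.90 ± 0.29, Lrrc59 by 1.90 ± 0.41 and Unc93b1, which escorts the endosomal receptors, by 0.96 ± 0.36. Among 10 tested genes of LPS binding and handling 8 rose and 1 fell. The LPS-deacylating enzyme Aoah rose by 5.12 ± 0.42, the complement receptor chains Itgam and Itgb2 by 4.18 ± 0.40 and 2.37 ± 0.33, and Cd36 by 2.39 ± 0.37. Of 3 other TIR adaptors and related proteins Pik3ap1 rose by 1.77 ± 0.31, and Tirap and Ticam1 were not called.

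Downstream, 3 of 13 kinases and ubiquitin ligases rose at 4 h of LPS alone, a share near the 27.9% of all genes called. Irak2 rose by 3.20 ± 0.35, Tank by 2.65 ± 0.30 and Ikbke by 2.29 ± 0.28, and none fell. Of 8 transcription factors 6 rose, with Irf7 at 5.33 ± 0.37, Nfkb2 at 2.60 ± 0.40, Relb at 2.42 ± 0.44 and Irf8 at 1.12 ± 0.26. Of 10 negative regulators 8 rose, among them the decoy kinase Irak3 by 5.31 ± 0.38, Tnip1 by 4.07 ± 0.33, the NF-kB inhibitor Nfkbia by 4.60 ± 0.40 and Tnfaip3 (A20) by 3.40 ± 0.41. The median log2 change of the negative regulators was 2.54, that of the kinases and ligases 0.24, that of the 9 members -0.24 and that of all genes -0.07.

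In DMM then LPS against LPS, averaged over both times, 15 of the 55 tested pathway genes were called, where 17.3% of all genes were. Tlr1 was lower by 1.94 ± 0.37 and Tlr8 by 1.01 ± 0.29, which makes 2 of 4 tested Toll-like receptors. Of the 7 chaperones 3 were lower, with Hsp90b1 (gp96), needed for the folding of most Toll-like receptors, at -1.53 ± 0.28 and Unc93b1 at -1.69 ± 0.31. Of 10 LPS-handling genes 3 were lower, Itgam by 1.78 ± 0.32 and Gsdmd by 0.80 ± 0.22 among them. Of 10 negative regulators Tnip1 and Irak3 were lower, by 1.35 ± 0.23 and 1.17 ± 0.27, and of 13 kinases and ligases 2 were lower and Map3k8 was higher by 1.70 ± 0.49. In succinate then LPS against LPS none of the 55 tested genes of these 7 lists was called, by the same edgeR test at a background of 2.1%; 6 had an unadjusted p under 0.05.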

How the data were processed

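TopHat2, Bowtie, HTSeq and edgeR are named in the submitters' processing notes, without versions or settings. The authors deposited 1 table of whole read counts by gene symbol, from full-length SmartSeq2 cDNA libraries with no molecular identifiers named in the labels' protocols. Amplified reads are not independent molecules, so counting intervals cover counting error only. Stimulated columns were tied to samples by treatment, time and number; unstimulated columns carry a number that matches no title. At 4 h, column numbers 1 and 2 were read as replicates A and B. The members and pathway lists were chosen with earlier results of these data known. Genes were kept if they reached the CPM of 10 counts (median library) in 2 or more libraries and held 15 counts in all (6812 of 34573). With R 4.3.3, edgeR 4.0.16 was used for TMM scaling and robust quasi-likelihood tests on 20 libraries in 9 groups (11 residual degrees of freedom, common coefficient of variation 0.230), or 12 groups with separated columns (8 and 0.199). A fit step was tested on simulated data, and CPM uses TMM-scaled library sizes. Alternatives were DESeq2 1.42.0, other scaling, no filter, all 21 libraries, a replicate block and separated columns. Each library that was not alone in its group was also left out in turn. Separated columns, and 7 comparisons, were added after the data were seen. Exon lengths came from GENCODE M21. The pathway genes named are up to 4 called genes a list with the smallest p after 4 h of LPS alone and up to 2 in other comparisons. The genes most like a member in pattern are the 3 with the highest r.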

Additional observations from a re-analysis of the deposited data

Results flagged for a closer look

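Among groups of 4 libraries, Tlr4 in DMM-treated cells held 1 library apart from the rest: column 2 had 54.4 CPM, where columns 1, 3 and 4 had 71.3, 72.2 and 69.6 CPM. It was the only 1 of 20 gene and group combinations past Dixon's 95% critical value, and chance passes about 1 in 20.

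With separated columns the effect of LPS on Tlr2 differed after DMM from its effect without DMM by -3.02 on the log2 scale at 4 h (adjusted p = 3.1e-05) and by -2.31 at 48 h (adjusted p = 0.016). The columns were separated after Tlr2 had been seen to differ between them, so these calls are not independent evidence. The 4 h call held without each library in turn. The 48 h call held, close to the threshold, without each DMM then LPS 48 h library and without DMM column 2 or 4. The LPS 48 h library and control column 4, each alone in its group, were not left out. With columns together the differences were -2.80 ± 0.81, adjusted p = 0.061, and -2.80 ± 0.87, adjusted p = 0.24.

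The effect of LPS for 4 h on Ly86 differed after DMM by -1.74 (adjusted p = 0.012) and after succinate by -3.77 (adjusted p = 0.008) with separated columns. The value after succinate rests on 1 library with 2 counts, so its size depends on the fitted prior count. With columns together the adjusted p-values were 0.27 and 0.59.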

How the results depend on the processing

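No member's called change reversed under any alternative that was run. Scaling by total counts alone moved the median log2 change of all genes by up to -0.61, in succinate then LPS 4 h against succinate. The shift was -0.57 for LPS 4 h against control and 0.35 for DMM then LPS against LPS. This scaling left 0 members called in DMM then LPS 4 h against LPS 4 h, where 877 of 6812 genes were called. With the library kept apart put back (all 21 libraries), 0 members were called in LPS 48 h against control, where 502 of 6894 genes were. In DMM then LPS against LPS 1 member was called. With no filter on low counts, 5 were called in LPS 48 h against control (6.01% of 21320 genes) and 4 in DMM then LPS 4 h against LPS 4 h (4.49%). That fit called 2 each in succinate then LPS 4 h against LPS 4 h (0.488%) and succinate then LPS against LPS (0.929%). In the DMM by LPS 4 h interaction it called 2 (2.4%). Counts of 1 each came in DMM then LPS 48 h against LPS 48 h (0.502%) and against 4 h (0.68%). The same held for LPS 48 h against 4 h (0.629%), the DMM by LPS 48 h interaction (0.394%) and the succinate by LPS 4 h interaction (0.136%). DESeq2 called 1 each in both DMM interactions and in succinate then LPS against LPS. Over all genes it called 407 of 6812 in the DMM by LPS 4 h interaction. DESeq2 with separated columns called 2 each in DMM then LPS 4 h against LPS 4 h (728 of 6812 genes) and DMM then LPS 48 h against LPS 48 h (134). In succinate then LPS 4 h against LPS 4 h it also called 2 (81). Counts of 2 came too in succinate then LPS against LPS and the DMM by LPS 4 h interaction. It called 1 each in DMM then LPS 48 h against 4 h (163), LPS 48 h against 4 h (126) and the DMM by LPS 48 h interaction. With separated columns edgeR called 3 in DMM then LPS 4 h against LPS 4 h (18.1% of genes). Counts of 2 came in succinate then LPS 4 h against LPS 4 h (1.92%) and succinate then LPS against LPS (3.41%). The same held for LPS 48 h against 4 h (2.57%) and the DMM by LPS 4 h interaction (6.56%). At 48 h against LPS 48 h it called 1 after DMM (2.51%) and 1 after succinate (1.45%). Counts of 1 also came in DMM then LPS 48 h against 4 h (3.19%), the DMM by LPS 48 h interaction (0.323%) and the succinate by LPS 4 h interaction (0.426%). The cause of these differences was not tested. For Tlr2 in DMM then LPS 4 h against LPS 4 h, the estimate was -2.04 with columns together and -2.05 with separated columns. For Ly86 these were -1.50 and -1.51. The columns were separated after Tlr2 and Ly86 had been seen to differ between them. Calls of these genes that appear only with separated columns are therefore not independent evidence.

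Leaving out 1 library gave 2 (LPS 4 h replicate B) to 5 members in LPS 4 h against control, between 3 (DMM then LPS 4 h replicate A) and 7 when DMM then LPS 4 h was set against DMM, 3 to 5 (control replicate 4) in LPS 48 h against control, 2 (DMM then LPS 48 h replicate 2 or DMM column 4) to 4 in DMM then LPS 48 h against DMM, 2 (DMM then LPS 4 h replicate A, DMM then LPS 48 h replicate 1 or LPS 4 h replicate B) to 5 in DMM then LPS against LPS, and 0 (DMM then LPS 4 h replicate A or B or LPS 4 h replicate B) to 1 in DMM then LPS 4 h against LPS 4 h. It gave 0 to 2 in DMM then LPS 48 h against 4 h and 0 to 1 in LPS 48 h against 4 h (without DMM then LPS 48 h replicate 1), 0 to 1 in DMM then LPS 48 h against LPS 48 h (replicate 2), 0 to 1 in DMM against control (control replicate 4), and 0 to 1 in each DMM interaction (1 without control column 4, DMM column 1 at 4 h or DMM then LPS 48 h replicate 2 at 48 h). Succinate then LPS against succinate gave 5 to 6 at 4 h and 3 to 5 at 48 h, and succinate then LPS against DMM then LPS gave 2 to 3. Calls over all genes moved with these omissions too. LPS 4 h against control called 1664 of 6837 genes without control replicate 1, instead of 1899 of 6812. Every omission there, in both comparisons against DMM and in DMM then LPS 4 h against LPS 4 h called fewer genes. The ranges by themselves are therefore not particular to the members.

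The replicate letters pair LPS 4 h and DMM then LPS 4 h libraries only by number: their differences between replicates had r = 0.00042 over genes. A replicate block among stimulated libraries called 2 members in DMM then LPS 4 h against LPS 4 h (1043 of 6812 genes) and 1 in LPS 48 h against 4 h (93). It lost Tlr7 in DMM then LPS against LPS (adjusted p = 0.19), Tlr2 in DMM then LPS 48 h against DMM (0.071), Myd88 in succinate then LPS against DMM then LPS (0.069), Tlr4 in LPS 48 h against control (0.078) and succinate then LPS 4 h against succinate (0.059), and Cd180 in succinate then LPS 48 h against succinate (0.30). It called Cd180 in the other 3 LPS comparisons where it had not passed (0.0039 to 0.048), and over all genes 749 instead of 1179 in DMM then LPS against LPS.

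Over all genes, with all 21 libraries, LPS 48 h against control called 502 genes instead of 1414 and DMM then LPS 4 h against LPS 4 h 456 instead of 956. DESeq2 with separated columns called 1217 instead of 1899 in LPS 4 h against control. In the DMM by LPS interactions, 64 of 370 called genes were higher at 4 h and 5 of 27 at 48 h with TMM scaling, against 114 of 303 and 13 of 35 with total counts, and for DMM then LPS 48 h against LPS 48 h these were 10 of 55 and 21 of 72. With 1 library in LPS 48 h and in each succinate then LPS group, and at most 42 counts of Ticam2 and 21 of Ly96 in any group, small changes were not detectable at this depth.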

Other observations

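The library labelled LPS 48 h replicate 1 enters the comparisons above only where all 21 libraries are named. It held 1222 CPM of Cd14, 58.9 CPM of Tlr4, 30.8 CPM of Myd88, 58.9 CPM of Cd180, 64.2 CPM of Tlr13, each within the range of the 11 unstimulated libraries, and 36.9 CPM of Tlr7, just below it. Its 111 CPM of Ly86 and 82.6 CPM of Tlr2 lay within the ranges of unstimulated columns 2 and 4, and Ly96 was at 0.

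At 48 h of LPS alone 31 of 55 tested pathway genes were called, where 20.8% of all genes were. Among them 7 of 10 negative regulators were called and all were higher, with Irak3 at 5.25 ± 0.42 and Nfkbia at 4.78 ± 0.44 on the log2 scale. Of 10 LPS-handling genes 8 were higher, led by Aoah at 4.68 ± 0.46 and Itgam at 3.72 ± 0.44 by the smallest p, and 1 was lower. Tlr1 rose by 3.35 ± 0.55, beside the members' values for LPS 48 h against control.

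Between the pretreated groups, succinate then LPS against DMM then LPS, 16 of 55 tested pathway genes were called, where 17.3% of all genes were. Tlr1 was at 1.50 ± 0.44 and Tlr8 at 1.01 ± 0.32 among 4 tested receptors, and Unc93b1 at 1.78 ± 0.33 and Hsp90b1 at 1.45 ± 0.30 among 7 chaperones, of which 3 were higher. LPS-handling genes went both ways, 3 higher and 3 lower of 10, with Itgb2 at 1.56 ± 0.30 and Itgam at 1.74 ± 0.35. Among 10 negative regulators only Tnip1 at 1.58 ± 0.25 and Irak3 at 0.99 ± 0.29 were called.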
